A study of Mus musculus with 6 samples.

Results

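The genes around Sirt2 on mouse chromosome 7 were examined in 6 RNA-seq libraries of Th17 cells, the CD4 T helper cells known for producing interleukin 17. They were chosen by position: 272 annotated genes had all their transcripts between bases 23766735 and 33788661 of chromosome 7, a window of 5 Mb on each side of Sirt2 (28766735 to 28788661). Of these, 136 reached 1 FPKM in at least 3 of the 6 libraries, where FPKM is a level scaled to transcript length and to the mapped fragments of the library. Sirt2 itself and 12 genes named in the rule or of excluded families (Akt2, Tgfb1, Nfkbib and genes of the ribosomes, respiratory chain, proteasome and mitochondrial import) were left out, which left 123 genes of 10873 tested in all. Of the 123, 110 reached 1 FPKM in all 6 libraries. No measured value entered the choice apart from this minimum level, and 1 gene reached it through KO libraries alone. Genes just inside it included Lgals4 and Tmem147os, each at 1 FPKM or more in 3 libraries, and genes just outside were Clip3, Arhgap33, Lsr and Blvrb, each in 2.

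The study compared 3 libraries of Sirt2 KO cells, made with CRISPR/Cas9, with 3 libraries of Sirt2 WT control cells. Both groups were Th17 cells restimulated for 72 h with antibodies against CD3 at 0.5 µg/mL and against CD28 at 1 µg/mL, and the label "untreated" applied to all 6. The guide, its delivery, the strain and the age of the mice are not given in the sources used here. No label says whether the 3 replicates of a group came from separate mice or cultures, so p-values reflect library-to-library spread alone, possibly of technical origin. In bulk RNA, fewer cells of a type and less RNA per cell cannot be told apart.

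A gene's neighbours on the chromosome matter in edited cells because a break at the cut site is repaired in place, and because neighbouring genes can share enhancers and chromatin domains. The region holds clusters of KRAB zinc finger genes, whose products are DNA-binding repressors that arose by repeated gene duplication, and a small cluster of galectins, lectins that bind beta-galactosides. Scattered between them are housekeeping genes of RNA processing and transcription, and genes with known roles in T cells, such as Nfkbid, Map4k1 and Zbtb32.

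None of the 123 genes passed the threshold of the genome-wide test, which was limma on log2(FPKM + 1) with Benjamini-Hochberg adjusted p under 0.05 over all 10873 genes. The test called 12 genes in all, or 0.11%. At an unadjusted p under 0.05 there were 17 of the 123 (13.8%), against 5.61% of all tested genes. Of these, 6 were higher in KO (2.54% of all genes were) and 11 lower (3.07% of all genes were). The groups did not overlap for 20 of the 123 (16.3%), against 11.2% of all genes: 6 were higher in every KO than in every WT library (4.28% of all genes were), and 14 were lower in every KO library (6.88% of all genes were). With libraries scaled to a common median, these counts were 9 higher and 11 lower. The groups stood apart with mean levels differing at least 1.5 times for 7 (5.69%), against 1.26% of all genes. They included Hspb6, Fbxo17, Lgals7 and Zbtb32, higher in KO, and Zfp82 and Dyrk1b, lower in KO. The authors' deposited table, which carries its own p-values, had a q under 0.05 for 4 of the 123 (3.25%), Fbxo17, Hspb6 and Zbtb32 among them, against 0.451% of the tested genes. The shares are descriptions of the region, with no test of enrichment.

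For 5 of these 7 genes the RefSeq transcription start lay within 100 bases of the start of the gene's most abundant transcript in the files. For these 5, taken from the genes that stood furthest apart, the 250 bases upstream of the RefSeq start are shown. All are from RefSeq on GRCm38.p6, 5′ to 3′ on the gene's own strand. Capitals mark 4 short motifs, chosen after the values had been seen and searched on both strands, with overlapping matches counted. The GC box, bound by Sp1-type factors, was searched as GGGCGG. The TATA box, the element bound by TBP in some core promoters, was searched as TATAAA. The letters TGANTCA stood for the site of AP-1, a factor of T cell activation. Paired units of the heat shock element were searched as GAANNTTC. The stretches lie at chr7:28716540-28716789 (Fbxo17, plus strand), chr7:30553051-30553300 (Hspb6, plus strand), chr7:30592943-30593192 (Zbtb32, minus strand), chr7:30072824-30073073 (Zfp82, minus strand) and chr7:28179233-28179482 (Dyrk1b, plus strand).
Fbxo17: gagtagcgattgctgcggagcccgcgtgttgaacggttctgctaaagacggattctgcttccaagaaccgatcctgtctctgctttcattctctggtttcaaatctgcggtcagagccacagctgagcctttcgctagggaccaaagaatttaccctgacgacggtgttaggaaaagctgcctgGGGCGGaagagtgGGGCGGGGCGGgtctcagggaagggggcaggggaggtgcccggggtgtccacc
Hspb6: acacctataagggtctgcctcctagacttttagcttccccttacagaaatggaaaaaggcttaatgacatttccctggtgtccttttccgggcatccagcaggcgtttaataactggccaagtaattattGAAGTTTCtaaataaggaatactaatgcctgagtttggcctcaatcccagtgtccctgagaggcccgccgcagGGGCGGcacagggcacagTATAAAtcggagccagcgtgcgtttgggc
Zbtb32: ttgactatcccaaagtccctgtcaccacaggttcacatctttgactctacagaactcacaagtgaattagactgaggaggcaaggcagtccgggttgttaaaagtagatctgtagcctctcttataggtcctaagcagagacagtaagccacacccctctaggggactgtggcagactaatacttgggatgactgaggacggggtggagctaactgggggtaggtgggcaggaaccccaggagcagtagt
Zfp82: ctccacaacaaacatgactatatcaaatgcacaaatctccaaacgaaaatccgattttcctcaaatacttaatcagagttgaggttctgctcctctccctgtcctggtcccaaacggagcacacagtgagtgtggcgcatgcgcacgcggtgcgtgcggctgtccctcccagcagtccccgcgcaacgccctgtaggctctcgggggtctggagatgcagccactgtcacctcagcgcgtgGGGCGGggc
Dyrk1b: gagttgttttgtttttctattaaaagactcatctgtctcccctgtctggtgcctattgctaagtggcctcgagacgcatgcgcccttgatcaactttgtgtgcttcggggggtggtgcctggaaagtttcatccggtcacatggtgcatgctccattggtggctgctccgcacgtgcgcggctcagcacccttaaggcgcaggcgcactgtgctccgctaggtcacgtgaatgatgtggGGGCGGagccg
Fbxo17 held 3 GC boxes, of which a pair overlapped, Hspb6 held 1 GC box, 1 TATA box and 1 heat shock element, Zfp82 and Dyrk1b held 1 GC box each, and Zbtb32 held none of the 4. For Hspb6, Zfp82 and Dyrk1b the RefSeq start lay 33, 77 and 14 bases inside the span of the most abundant transcript. The TATA box of Hspb6 and the GC boxes of Zfp82 and Dyrk1b lie within that span, downstream of the transcript's own start. Of all 32851 promoters of this length in the reference table, 32.7% held the GC box, 12.4% the TATA box, 6.75% the AP-1 site and 6.69% the heat shock element. Of the 122 promoters listed for 100 of the 123 genes, 56.6% held the GC box, 4.1% the TATA box, 4.1% the AP-1 site and 9.84% the heat shock element. GC content over these 250 bases was 58.8% for Fbxo17, 57.6% for Zfp82, 56.8% for Dyrk1b, 51.2% for Zbtb32 and 49.6% for Hspb6, beside a median of 52.4% over all promoters. The 32851 promoters were not limited to genes measured here, while the 123 genes had to reach 1 FPKM. Shares over the promoters of all tested genes are not given here, so these shares and the GC median do not set the region apart from other expressed genes. A match to letters is a description of the sequence and not a measured binding site.

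Sirt2 RNA was read first, as the check of the labels. KO replicates 1 to 3 gave 11.2, 13.5 and 10.9 FPKM, and WT replicates 1 to 3 gave 20.7, 19.9 and 21.9 FPKM. Values of other genes follow the same order of replicates. Every KO library lay below every WT library, and the mean fell from 20.8 ± 0.999 to 11.9 ± 1.41 FPKM (SD, n = 3 each; log2 difference -0.76, SE 0.09, limma adjusted p = 0.0429). RNA of the targeted gene was thus still present at 0.572 of the WT level.

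The nearest genes on each side mostly had like levels in both groups. Rinl, an activator of Rab5-type GTPases whose span begins 0.308 kb beyond the end of Sirt2, was at 26.2, 24.6 and 24.6 FPKM in KO and 26.2, 26.7 and 25.98 FPKM in WT. KO replicate 1 lay within the WT range, and the log2 difference was -0.06 (95% interval -0.21 to 0.08). Hnrnpl, a splicing factor and the most abundant of the 123 genes, began 19.88 kb away and was at 89.8, 91.5 and 84.5 FPKM in KO and 89.4, 91.4 and 91.3 FPKM in WT. The groups overlapped, with a log2 difference of -0.03 (95% interval -0.17 to 0.10). Sars2, the mitochondrial seryl-tRNA synthetase 12.86 kb on the other side, differed by -0.02 (95% interval -0.20 to 0.16). Ech1, an enzyme of fatty acid oxidation 36.56 kb away, differed by -0.07 (95% interval -0.23 to 0.09). Actn4, an actin crosslinker 104.6 kb away, differed by -0.04 (95% interval -0.20 to 0.13). The intervals bound these log2 differences rather than show them to be absent.

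2 of the near neighbours stood apart from that run. Fbxo17, a substrate receptor of SCF ubiquitin ligases 28.59 kb from Sirt2 on the side of lower coordinates, was at 3.20, 4.53 and 4.23 FPKM in KO and at 2.03, 2.08 and 1.29 FPKM in WT. All KO libraries lay above all WT libraries, and the mean was 2.21 times higher in KO. The log2 difference was 0.83 (SE 0.16) with a limma adjusted p of 0.248, which did not pass, and the q in the authors' deposited table was 0.000344. Lgals7, an epithelial galectin 75.19 kb away on the other side, was at 3.43, 3.39 and 2.82 FPKM in KO and 1.47, 2.08 and 1.85 FPKM in WT. Its groups did not overlap either, the mean was 1.78 times higher in KO, and the limma adjusted p of 0.311 did not pass (log2 difference 0.59, SE 0.12).

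Lgals4, the other measured galectin, lies between Sirt2 and Lgals7, 45.19 kb from Sirt2. It was at 0.504, 0.609 and 1.41 FPKM in KO and 1.21, 0.568 and 1.64 FPKM in WT. The groups overlapped across nearly their whole range, so the galectins around Sirt2 gave 1 gene whose groups stood apart and 1 whose groups did not. On the side of lower coordinates, the RNA-binding protein gene Samd4b, 168.6 kb away, was at 8.35, 8.60 and 9.99 FPKM in KO and 11.7, 10.5 and 10.5 FPKM in WT. Every KO library was below every WT library, but the difference did not pass (log2 difference -0.26, SE 0.09, limma adjusted p = 0.843). The deposited span of Samd4b overlaps Pak4 on its own strand and Lrfn1 and Gmfg on the opposite strand, so reads of these genes may not be separable. The gap of 168.6 kb is that of the deposited span, and the most abundant transcript of Samd4b ends farther from Sirt2, at base 28436191.

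Pak4, a kinase of the actin cytoskeleton at the same 168.6 kb, differed by -0.06 on the log2 scale (SE 0.11) and its groups overlapped. Lrfn1, a synaptic adhesion molecule 298.5 kb away, was at 0.930, 1.04 and 1.19 FPKM in KO and 1.47, 1.59 and 1.28 FPKM in WT, with every KO library below every WT library (log2 difference -0.26, limma adjusted p = 0.843). Gmfg, a regulator of actin branching in leukocytes 318.5 kb away, was at 8.88, 10.03 and 16.8 FPKM in KO and 13.3, 13.7 and 15.4 FPKM in WT. KO replicates 1 and 2 lay below all WT libraries and KO replicate 3 above them.

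The remaining genes that were higher in KO lay more than 1 Mb from Sirt2. Hspb6, a small heat shock protein with chaperone activity, lay 1764 kb from Sirt2 on the side of higher coordinates. It was at 3.52, 5.11 and 5.16 FPKM in KO and 1.81, 1.85 and 2.39 FPKM in WT. All KO libraries were above all WT libraries with means 2.28 times apart, and the log2 difference of 0.88 (SE 0.15, limma adjusted p = 0.158) was the largest positive one among the 123. Zbtb32, a BTB zinc finger repressor known to restrain cytokine genes in activated lymphocytes, was by far the most abundant of the zinc finger genes, at 67.0, 61.0 and 42.2 FPKM in KO and 36.4, 38.2 and 35.6 FPKM in WT. KO replicate 3 lay nearest to the WT range, and the means were 1.54 times apart (log2 difference 0.59, SE 0.16, limma adjusted p = 0.717). Psenen, a subunit of gamma-secretase, was at 26.9, 25.03 and 22.5 FPKM in KO and 21.4, 21.1 and 20.8 FPKM in WT. Its groups also stood apart, with means 1.18 times apart.

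Hspb6, Zbtb32 and Psenen are neighbours. They lie within 46.7 kb that hold 7 of the 123 genes, a stretch singled out after the values were seen. The genes interleaved with them had overlapping groups: Lin37, a cell cycle repressor subunit, had a log2 difference of 0.05, the splicing factor gene U2af1l4 of 0.08, Gm49396 of -0.19, and Kmt2b, a histone H3 lysine 4 methyltransferase, of -0.17. Kmt2b lies between Psenen and Zbtb32 and its KO mean was 0.877 of its WT mean.

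**Figure D1:**
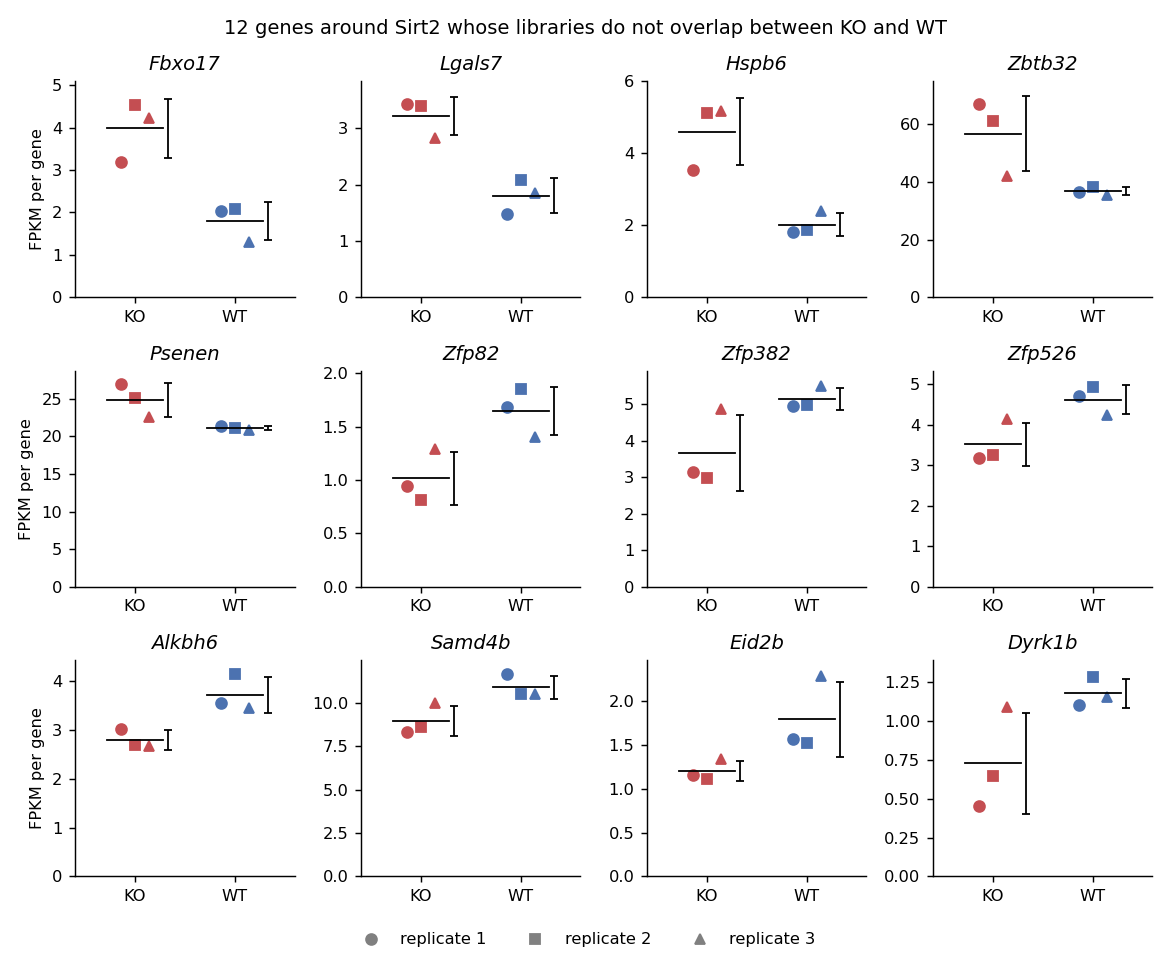
FPKM of 12 genes around Sirt2 in each library, KO in red and WT in blue, with the replicate number as the symbol, the mean as a line and the SD of 3 libraries as a bar to its right. The first 5 panels show 5 of the 6 genes higher in every KO library and the other 7 show 7 of the 14 genes lower in every KO library. KO replicate 3 is nearest to the WT range for Lgals7, Zbtb32, Psenen, Zfp82, Zfp382, Zfp526, Samd4b, Eid2b and Dyrk1b.

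Among the genes that were lower in KO, Zfp82 and Dyrk1b had the widest ratios. Zfp82, a KRAB zinc finger gene, was at 0.945, 0.811 and 1.29 FPKM in KO and 1.68, 1.85 and 1.402 FPKM in WT. The groups did not overlap, and the mean was 0.618 of that in WT (log2 difference -0.40, SE 0.13, limma adjusted p = 0.843). Zfp82 overlaps Gm26920 on the same strand over 16867 bases, so reads of these genes may not be separable. Dyrk1b, a kinase linked to cell cycle exit, was at 0.454, 0.643 and 1.09 FPKM in KO and 1.103, 1.28 and 1.15 FPKM in WT. KO replicate 3 was just under the lowest WT library, and the ratio of means was 0.618.

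Alkbh6, a member of the AlkB dioxygenase family, had the smallest unadjusted p of the lower genes at 0.0127. It was at 3.03, 2.70 and 2.67 FPKM in KO and 3.56, 4.14 and 3.45 FPKM in WT. Its groups stood apart by a ratio of 0.753, and the limma adjusted p was 0.806. Zfp526 was at 3.18, 3.25 and 4.14 FPKM in KO and 4.72, 4.93 and 4.23 FPKM in WT, and Rnf170-ps, a pseudogene, at 1.06, 0.768 and 1.32 against 1.74, 1.90 and 1.29 FPKM. The groups of Zfp526 stood apart, while KO replicate 3 of Rnf170-ps lay above the lowest WT library.

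By distance of the deposited gene spans from Sirt2, the share of genes at a small p was lower in each farther bin. The share of genes whose groups stood apart did not follow this order. Each count held few genes, and the order was not tested. Of the 12 genes whose gap to Sirt2 was under 0.25 Mb, 3 had an unadjusted p under 0.05 (Fbxo17, Lgals7 and Samd4b). The number was 4 of 24 (16.7%) from 0.25 to 1 Mb, 7 of 51 (13.7%) from 1 to 2.5 Mb and 3 of 36 (8.33%) from 2.5 to 5 Mb, beside 5.61% of all tested genes. All 36 genes of the farthest bin lay on the side of lower coordinates. On the other side the outermost of the 123 genes, Gramd1a, lay 2341 kb from Sirt2. Distance and side therefore cannot be told apart in the farthest bin. Samd4b was placed by its deposited span, but its most abundant transcript (28399522 to 28436191) lies more than 0.25 Mb from Sirt2. With Samd4b counted in the bin from 0.25 to 1 Mb, the share would not fall from the nearest bin to that one. In the 4 bins from near to far, 16.7%, 0%, 5.88% and 2.78% of the genes were higher in every KO library, against 4.28% of all genes. The shares lower in every KO library were 8.33%, 12.5%, 9.8% and 13.9%, against 6.88% of all genes. The median log2 difference in these bins was -0.04, -0.08, 0.00 and -0.02. Across the 123 genes, Spearman's rho of the gap with the size of the log2 difference was -0.0781, given as a description across genes of the same libraries.

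**Figure D2:**
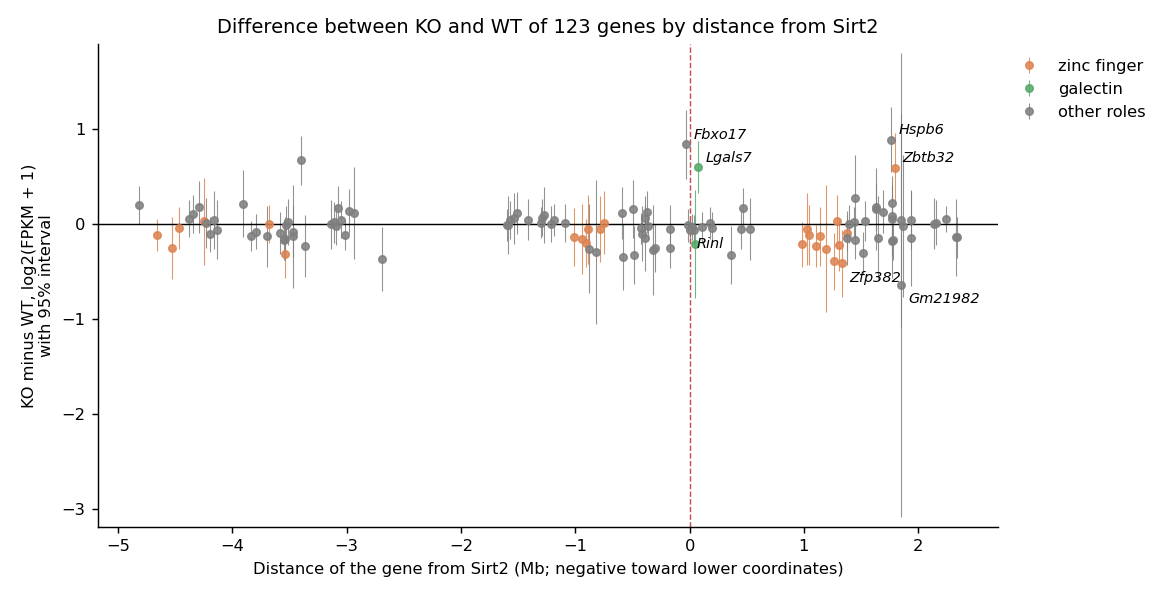
Difference between KO and WT on the log2(FPKM + 1) scale for each of the 123 genes, with the 95% interval of the fit, against the distance of the gene from Sirt2 in Mb (dashed line at Sirt2, negative values toward lower coordinates). Fbxo17 and Lgals7 lie beside Sirt2 while Hspb6 and Zbtb32 lie more than 1 Mb from it, and the interval of Gm21982 is the widest.

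The 123 genes as a group were centred close to all other genes. Their median log2 difference was -0.03, beside -0.03 over all tested genes and -0.02 over the 639 tested genes of chromosome 7 outside the window. With the libraries scaled to a common median, the median of the 123 became 0.01 and 60 of them were below 0 rather than 73. The ratio of means was between 0.8 and 1.25 for 102 of the 123 (82.9%), against 91.3% of all tested genes. The outermost genes of the 123 were Gm10175, at 42.8, 43.9 and 35.9 FPKM in KO and 36.1, 35.5 and 34.6 FPKM in WT, and Gramd1a, a sterol transporter, with a log2 difference of -0.14. KO replicates 1 and 2 of Gm10175 were above all WT libraries, while KO replicate 3 was within the WT range. The next tested genes of chromosome 7 beyond the window were Igsf23 (19937305 to 19950756), with a log2 difference of 0.10, and Uba2 (34140688 to 34169599), with one of -0.01.

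Zinc finger genes were the largest family, with 24 of the 123. Their median log2 difference was -0.13, and 20 of the 24 were below 0. At an unadjusted p under 0.05, 4 were lower in KO and 1, Zbtb32, was higher, together 20.8%, against 5.61% of all tested genes. The 269 tested zinc finger genes elsewhere in the genome, chosen by the same names, had a median of -0.09 with 211 below 0. Of these 269 genes, 4.09% had an unadjusted p under 0.05, 10 lower and 1 higher in KO. Groups stood apart in the lower direction for 5 of the 24 (20.8%), 11.2% of the zinc finger genes elsewhere and 6.88% of all genes. Zinc finger genes thus lay mostly below 0 both around Sirt2 and elsewhere, and the difference between the region and the rest of the family was not tested.

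By library, the median difference from the WT mean over the 24 genes was -0.14 in KO replicate 1, -0.31 in KO replicate 2 and 0.03 in KO replicate 3. For the zinc finger genes elsewhere it was -0.13, -0.16 and 0.04. Zinc finger genes have long transcripts: the median length of the longest transcript was 3711.5 bases for the 24 genes and 3019.5 bases over all tested genes. Across all tested genes, Spearman's rho of this length with the difference from the WT mean was -0.315 in KO replicate 1, -0.45 in KO replicate 2 and 0.204 in KO replicate 3, and in the 123 genes -0.266, -0.361 and 0.0867. With the trends of length and GC content removed from each library, the median of the 24 genes was -0.10 with 21 below 0, and with libraries scaled to a common median it was -0.10 with 19 below 0.

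By position, 11 zinc finger genes form a block between 0.9 and 1.4 Mb on the side of higher coordinates. Its median log2 difference was -0.22, with 10 of 11 below 0 and the groups of Zfp27, Zfp82 and Zfp382 standing apart. A block of 6 between 0.7 and 1.1 Mb on the other side had a median of -0.10 and none whose groups stood apart, and the 6 more than 3 Mb away had a median of -0.08, with the groups of Zfp180 and Zfp526 standing apart. In those 6 genes the median difference from the WT mean was -0.14 in KO replicate 1, -0.08 in KO replicate 2 and -0.09 in KO replicate 3. Zbtb32, which carries a BTB rather than a KRAB domain, was the only zinc finger gene of the 24 that was higher in every KO library.

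Zfp382 was at 3.15, 2.97 and 4.87 FPKM in KO and 4.95, 4.97 and 5.50 FPKM in WT. KO replicate 3 came within 0.1 FPKM of the lowest WT library, and the other KO libraries lay far below it (log2 difference -0.42, SE 0.15, limma adjusted p = 0.843). Zfp568, named after its values were seen, showed a different pattern, at 4.73, 1.51 and 4.27 FPKM in KO and 4.29, 4.19 and 3.76 FPKM in WT. Only KO replicate 2 was low there. The most abundant genes of the family after Zbtb32, Zfp146 and Zfp180, had log2 differences of -0.10 and -0.12. The groups of Zfp180 stood apart, with means of 6.71 ± 0.197 FPKM in KO and 7.38 ± 0.386 FPKM in WT (SD, n = 3 each), and those of Zfp146 overlapped.

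**Figure D3:**
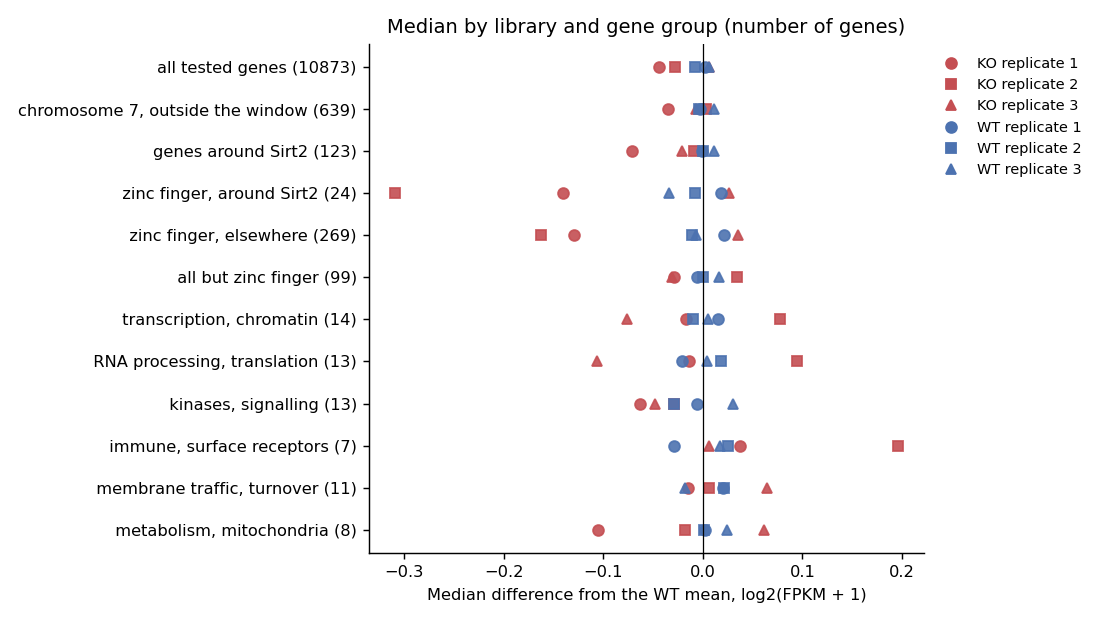
Median difference from the WT mean on the log2(FPKM + 1) scale in each library (KO in red, WT in blue, replicate number as the symbol) for all tested genes, chromosome 7 outside the window, the genes around Sirt2, and their roles, with the number of genes in brackets. Zinc finger genes lie at -0.14 and -0.31 in KO replicates 1 and 2 and at 0.03 in KO replicate 3, and the zinc finger genes elsewhere lie on the same sides of 0.

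Of the other roles, transcription and chromatin held 14 genes with a median log2 difference of -0.01, 7 above and 7 below 0. Supt5, a subunit of the elongation factor DSIF, was at 37.2, 38.8 and 34.0 FPKM in KO and 38.9, 36.9 and 37.8 FPKM in WT. Paf1, of the elongation complex of the same name, and the E-box factor Usf2 had log2 differences of -0.02 and 0.01. All 3 had overlapping groups. Eid2b, an inhibitor of differentiation, was at 1.15, 1.11 and 1.33 FPKM in KO and 1.56, 1.52 and 2.28 FPKM in WT, and its groups stood apart without passing (limma adjusted p = 0.843).

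RNA processing and translation held 13 genes with a median of 0.01. Samd4b and Alkbh6 alone (15.4%) had groups that stood apart, both lower in KO, against 6.88% of all tested genes in that direction. Fbl, or fibrillarin, which methylates ribosomal RNA, stood at 71.6, 75.4 and 54.4 FPKM in KO and 59.6, 62.2 and 62.6 FPKM in WT. KO replicates 1 and 2 were above all WT libraries and KO replicate 3 below them. Eif3k, a subunit of the initiation factor eIF3, had a log2 difference of 0.01.

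Kinases and signalling held 13 genes with a median of -0.05, 10 of them below 0 (8 with libraries scaled to a common median). Nfkbid, a nuclear IkB protein induced by T cell receptor signals, was at 69.6, 81.2 and 45.7 FPKM in KO and 56.8, 59.1 and 55.6 FPKM in WT. KO replicates 1 and 2 were again above all WT libraries and KO replicate 3 below them. Gsk3a, a glycogen synthase kinase, and Map4k1, a negative regulator of T cell receptor signalling, had log2 differences of -0.01 and -0.05. Arhgef1, an exchange factor for RhoA, was at 26.8, 30.1 and 27.4 FPKM in KO and 30.8, 30.2 and 31.3 FPKM in WT, so that its groups stood apart by 0.914 in the ratio of means.

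Of the 7 immune and surface receptor genes, 6 had a log2 difference above 0 (median 0.13), and none had groups that stood apart or an unadjusted p under 0.05. Axl, a receptor tyrosine kinase used in the uptake of dying cells, was at 28.9, 27.3 and 22.2 FPKM in KO and 23.9, 23.8 and 23.4 FPKM in WT. Hcst, the adaptor DAP10 of NKG2D, was at 5.21, 6.005 and 6.27 FPKM in KO and 5.04, 4.43 and 5.69 FPKM in WT. Spint2, which inhibits serine proteases, had 4.79, 5.26 and 5.94 FPKM in KO and 4.52, 4.93 and 4.50 FPKM in WT. In each of these 3 genes the KO mean was higher and the groups overlapped by 1 KO library. Fxyd5, a regulator of the sodium pump, and Kcnn4, the calcium-activated potassium channel of T cells, each had a log2 difference of 0.05.

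Membrane traffic and protein turnover held 11 genes, of which 3 (27.3%) had groups that stood apart, all higher in KO, Fbxo17 and Psenen among them. Of all tested genes, 4.28% were higher in every KO library. Rabac1 and Yif1b, both of Golgi transport, had log2 differences of -0.08 and -0.05. Metabolism held 8 genes with a median of -0.01 and no gene whose groups stood apart. Lipe, the hormone-sensitive lipase, was at 3.30, 4.33 and 5.16 FPKM in KO and 5.29, 4.58 and 5.52 FPKM in WT. Coq8b, needed for coenzyme Q synthesis, differed by 0.11 on the log2 scale, Bckdha, a subunit of the branched-chain keto acid dehydrogenase, by 0.01, and the lysosomal enzyme Pld3 by -0.01. All 4 had overlapping groups.

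The 5 genes of cytoskeleton, calpain and DNA repair had a median of -0.02, and none had groups that stood apart. Capns1, the small calpain subunit, was at 58.6, 71.2 and 68.9 FPKM in KO and 63.8, 68.0 and 66.7 FPKM in WT. Tbcb, a tubulin folding cofactor, differed by 0.02 and Xrcc1, a scaffold of DNA strand break repair, by -0.11 on the log2 scale.

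Transcripts of the region were tested in the same way over 19184 transcripts at 1 FPKM in at least 3 libraries. None of the 218 that belonged to the 123 genes passed the adjusted threshold, which 0.0417% of all tested transcripts did. At an unadjusted p under 0.05 there were 24 of the 218 (11.0%), against 5.57% of all tested transcripts. In every KO library, 16 (7.34%) were higher than in any WT library and 21 (9.63%) lower, against 4.71% and 6.36% of all tested transcripts. The authors' deposited table had a q under 0.05 for 8 (3.67%), against 1.78%. The smallest p belonged to a retained-intron transcript of Rab4b, a GTPase of recycling endosomes. This transcript, ENSMUST00000134462, was at 0.206, 0.267 and 1.14 FPKM in KO and 4.98, 4.40 and 4.12 FPKM in WT. No KO library came near the WT range, and the log2 difference was -1.89 (SE 0.26, limma adjusted p = 0.150).

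The coding transcript of Rab4b, ENSMUST00000093040, went the other way at 18.1, 22.9 and 26.2 FPKM in KO and 15.2, 16.6 and 13.0 FPKM in WT, with no overlap (log2 difference 0.55, limma adjusted p = 0.768). The total of the gene was 11.4, 14.2 and 16.9 FPKM in KO and 15.2, 13.2 and 14.03 FPKM in WT, a ratio of 1.00. The deposited value of a gene is its transcripts' FPKM weighted by length over all its exons, and is not their sum. Rab4b overlaps Gm21983 on the same strand, so reads of the 2 genes may not be separable.

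Tmem147, a membrane protein of the endoplasmic reticulum, also had a transcript whose groups stood apart while those of the gene did not. Its coding transcript ENSMUST00000006478 was at 39.5, 42.7 and 36.3 FPKM in KO and 20.7, 12.7 and 23.3 FPKM in WT, with no overlap (log2 difference 1.07, SE 0.22, limma adjusted p = 0.517). Another coding transcript, ENSMUST00000207296, was at 0.178, 8.10 and 0.181 FPKM in KO and 13.99, 12.4 and 7.37 FPKM in WT, so that KO replicate 2 lay within the WT range. The gene total was 36.9, 42.9 and 28.8 FPKM in KO and 35.0, 33.9 and 35.6 FPKM in WT. The totals overlapped with a ratio of 1.04.

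**Figure D4:**
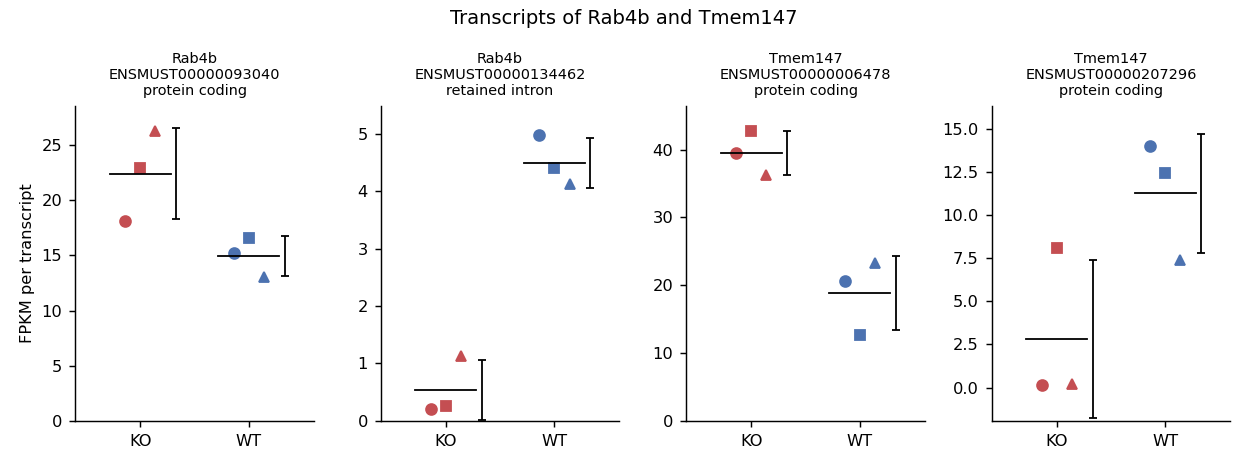
FPKM of 2 transcripts each of Rab4b and Tmem147 in every library (KO in red, WT in blue, symbols for replicates, line for the mean, bar for the SD of 3 libraries). The retained-intron transcript of Rab4b is low in all KO libraries and its coding transcript is higher in all of them, and the coding transcript ENSMUST00000006478 of Tmem147 is higher in all KO libraries.

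Other transcripts of small p went in the direction of their genes, though not always by the same amount. A retained-intron transcript of Arhgef1, ENSMUST00000144714, was at 0.359, 0.382 and 0.511 FPKM in KO and 1.64, 1.21 and 1.16 FPKM in WT (limma adjusted p = 0.552). The Fbxo17 transcript annotated for nonsense-mediated decay, ENSMUST00000108278, was at 1.81, 1.44 and 1.85 FPKM in KO and 0.843, 0.511 and 0.678 FPKM in WT, higher in every KO library as the gene was. Wdr62, a centrosomal scaffold, had a transcript, ENSMUST00000108190, at 4.45, 2.80 and 3.20 FPKM in KO and 5.83, 6.20 and 5.89 FPKM in WT. Its gene total was also lower in every KO library, but the ratio of means was 0.867. Another Wdr62 transcript, ENSMUST00000145027, annotated for nonsense-mediated decay, was at 0, 2.53 and 2.89 FPKM in KO and 0.322, 0 and 0.102 FPKM in WT. None of the transcripts ENSMUST00000144714, ENSMUST00000108278 and ENSMUST00000108190 passed the adjusted threshold.

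At 1 place the values of overlapping genes exchanged between libraries of the same group. Rbm42, an RNA-binding protein gene, was at 38.0, 35.6 and 10.3 FPKM in KO and 34.1, 24.1 and 16.1 FPKM in WT. Gm21982, a gene with 1 retained-intron transcript that overlaps Rbm42 and the centrosome gene Haus5 on the same strand, was at 0.376, 2.86 and 17.4 FPKM in KO and 1.01, 10.4 and 15.4 FPKM in WT. Libraries low in one were high in the other, and the sums were 38.4, 38.4 and 27.7 FPKM in KO and 35.1, 34.5 and 31.5 FPKM in WT. Haus5 was low in the libraries in which Gm21982 was high. The groups overlapped for all 3 genes, which were named after their values were seen. Of the 123 genes, 52 overlap another gene of the deposited tables.

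**Figure D5:**
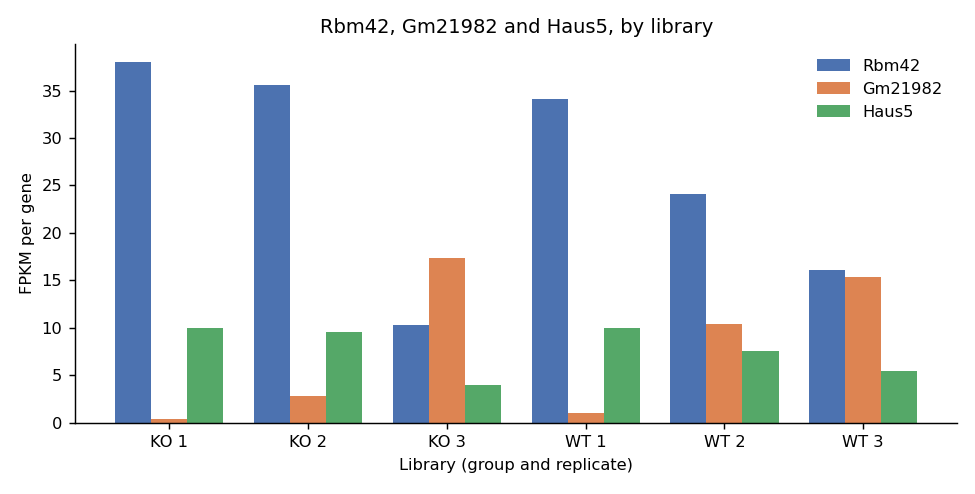
FPKM of Rbm42, Gm21982 and Haus5, which overlap on 1 strand, in each of the 6 libraries. Rbm42 and Haus5 are lowest and Gm21982 highest in KO replicate 3, and WT replicate 3 shows the same order within its group.

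KO replicate 3 decided how many genes passed. Without it, limma called 19 of the 123 genes at an adjusted p under 0.05 (15.4%), against 10.2% of all tested genes (1106). Of the 19, 11 were higher in KO (4.09% of all genes were) and 8 lower (6.08% of all genes were). Among them were all 6 genes that were higher in every KO library. Of these, Zbtb32 had an adjusted p of 0.00283, Lgals7 of 0.0211, Hspb6 of 0.0248, Psenen of 0.0284 and Fbxo17 of 0.0352. The 8 lower genes were Zfp526, Zfp84, Zfp82, Zfp382, Dyrk1b, Samd4b, Gmfg and Fam98c. The other 5 higher genes were Gm10175, Axl, Fbl, Polr2i and Nfkbid, whose values in KO replicate 3 lay within or below the WT range. Leaving out any other single library gave no call among the 123.

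The summed markers of CD8 and NK cells and of myeloid cells were higher in KO, while the sums of B cell markers overlapped. The summed FPKM of 6 CD8 and NK cell genes was 23.3 to 26.6 in KO and 8.96 to 9.82 in WT. Gzmb, Nkg7 and Cd8a were higher in every KO library, while Cd8b1, Klrd1 and Prf1 had overlapping groups. Gzmb had the largest part of the KO sums, at 19.2, 18.1 and 11.6 FPKM in KO and 2.66, 2.76 and 2.97 FPKM in WT. The sum of 5 myeloid genes was 6.69 to 11.5 in KO and 2.51 to 3.12 in WT, with 4 of 5 higher in every KO library, against 4.28% of all tested genes. Lyz2 had the largest part of the KO sums, at 8.31, 9.44 and 4.24 FPKM in KO and 1.38, 1.03 and 0.782 FPKM in WT. Csf1r and Itgam were below 1 FPKM in every library and were not tested. The lowest KO library of Cd68 was at 1.71 FPKM and its highest WT library at 1.7 FPKM, and the groups of Adgre1 overlapped. The sum of 4 B cell genes was 0.827 to 1.99 in KO and 0.679 to 0.922 in WT, with Ms4a1 listed at 0 in KO replicate 2 and in all WT libraries. Pax5 was listed at 0 in WT replicate 2, and Adgre1 in KO replicate 2 and WT replicate 2. The sum of 5 T cell genes was 518 to 556 in KO against 502 to 516 in WT, and that of 6 Th17 genes was 265 to 421 against 414 to 438. The part of such cells in the differences of Zbtb32, Lgals7, Hspb6 and the other genes around Sirt2 was not tested.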

How the data were processed

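RNA of 3 Sirt2 KO and 3 Sirt2 WT libraries of Th17 cells was analysed from gene and transcript tables. The authors deposited FPKM per gene and transcript. Per the file headers, the deposited tables also hold fold ratios, log2 fold changes, p-values and q-values, used only where the authors' deposited table is named. The submitters' processing notes list cutadapt, FastQC, HISAT2, StringTie and mm9. The deposited positions of all 608 transcripts of the 123 genes equal GENCODE M21 on GRCm38, the build of all coordinates. No counts were among the values, so depth is unknown. Summed FPKM per library ran from 303772 to 321734, and 10642 to 10958 genes reached 1 FPKM. The deposited gene value equalled the transcripts' FPKM times length over the union of exons within 1% for 122 of the 123 genes, so levels compare between genes per exon length.

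Genes reaching 1 FPKM in 3 or more of the 6 libraries entered limma 3.58.1 (R 4.3.3, mean trend) on log2(FPKM + 1), with p adjusted by Benjamini-Hochberg over all 10873 genes, or 19184 transcripts. Log2 differences are on this scale and understate the change of low genes. Both fits were tried on simulated data. The 123 genes and all lists were chosen with earlier results of these data known. Genes named in the text are the 6 nearest on each side of Sirt2, those of smallest p in each direction, those of highest level or smallest p in each role, both galectins, the outermost genes, genes whose groups stand apart with a ratio of at least 1.5, and the 6 transcripts of smallest p. Zfp568, Zfp27, Zfp84, Rbm42, Gm21982, Haus5, Fam98c, Polr2i, Lin37, U2af1l4 and Gm49396 were named after their values were seen. Some genes that this rule names are not reported here. Promoter sequences are from RefSeq. Functional enrichment tables were not used here.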

Additional observations from a re-analysis of the deposited data

How the results depend on the processing

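No gene around Sirt2 passed the adjusted threshold with all 6 libraries under any scaling, pseudocount, filter, variance model, length and GC correction or window that was run. No transcript of these genes passed under the alternatives run for transcripts, which were median scaling, another pseudocount, the replicate block and leaving out each library. Without the filter on low values (256 genes in the window), 10 genes were higher and 23 lower in every KO library. With a minimum of 5 FPKM (69 genes), the numbers were 2 and 5, 3 had an unadjusted p under 0.05, and 5 genes were called genome-wide. A window of 1 Mb (36 genes) held 7 at an unadjusted p under 0.05. Its genes higher in every KO library numbered 2 and those lower in every KO library 4, and a window of 2.5 Mb (87 genes) held 9 of the latter. Scaling to a common median moved the median of the 123 genes to 0.0076. An adjusted p under 0.01 left 7 calls genome-wide. The smaller counts come with fewer genes tested or a stricter threshold. Shares over all tested genes under these settings are not given here, so the counts do not set the genes around Sirt2 apart from other genes.

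Leaving out 1 library at a time gave 0 to 19 calls among the 123 genes, 7 to 48 at an unadjusted p under 0.05, 8 to 23 higher and 15 to 40 lower in every remaining KO library, and 0 to 1106 calls genome-wide. The upper ends, 19, 48, 23, 40 and 1106, came without KO replicate 3, and the cause was not tested. Groups of fewer libraries stand apart more readily. Apart from the calls, shares over all genes are not given here for these fits, so the counts do not set the 123 genes apart from others. Without KO replicate 1 there were 0 calls genome-wide, 8 of the 123 at an unadjusted p under 0.05 and 14 higher, without KO replicate 2 there were 7 at an unadjusted p, without WT replicate 1 there were 6 calls and 10 at an unadjusted p, without WT replicate 2 there were 1 call, 9 at an unadjusted p, 11 higher and 22 lower, and without WT replicate 3 there were 6 calls and 11 higher.

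No label says whether the replicate numbers pair the libraries. Deviations from the group means of same-numbered libraries had correlations of 0.00668, -0.017 and -0.0756. Those of differently numbered libraries ran from -0.107 to 0.12. Such values show no shared signal by number but cannot show that the libraries were unpaired. With the number as a replicate block, 13 genes were called genome-wide, 0 of the 123, and 14 of the 123 had an unadjusted p under 0.05.

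Of 54 named genes, 35 kept their direction in every alternative and 19 did not. The cause was not tested. Under scaling to a common median the log2 difference turned to 0.0067 for Actn4, 0.0382 for Capns1, 0.0304 for Gsk3a, 0.0076 for Hnrnpl, 0.0186 for Paf1, 0.0327 for Pld3, 0.027 for Rab4b and 0.0188 for Sars2. With length and GC trends removed it turned to -0.0274 for Bckdha, -0.0371 for Eif3k, -0.0385 for Tbcb, -0.0358 for Tmem147 and -0.0152 for Usf2. Leaving out 1 library at a time, it ran from -0.0942 to 0.0018 for Actn4, -0.0739 to 0.0591 for Bckdha, -0.0569 to 0.0803 for Capns1, -0.0474 to 0.0537 for Eif3k, -0.097 to 0.0509 for Gsk3a, -0.0225 to 0.0922 for Kcnn4, -0.1097 to 0.0041 for Map4k1, -0.0172 to 0.3906 for Nfkbid and -0.0447 to 0.0132 for Paf1. It ran from -0.1481 to 0.0325 for Pak4, -0.0411 to 0.0582 for Pld3, -0.1386 to 0.123 for Rab4b, -0.0452 to 0.0251 for Sars2, -0.0887 to 0.0033 for Supt5, -0.0028 to 0.0599 for Tbcb, -0.0921 to 0.1875 for Tmem147, -0.0427 to 0.1206 for Usf2 and -0.114 to 0.0337 for Yif1b.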
